A study of Mus musculus with 6 samples.

Results

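AP-1 is a family of transcription factors that bind DNA as pairs held together by a leucine zipper, the hallmark of basic leucine zipper (bZIP) proteins. FOS proteins need a JUN partner to bind, JUN proteins can also pair with each other, and ATF, BATF and small MAF proteins join or compete for the same pairs. Many of these genes are immediate early genes, switched on within minutes by MAP kinase signals, and in bone marrow (BM) they are known from myeloid differentiation and from stress responses of hematopoietic stem/progenitor cells. The 10 genes described here are the FOS family (*Fos*, *Fosb*, *Fosl1*, *Fosl2*), the JUN family (*Jun*, *Junb*, *Jund*) and *Atf3*, *Batf* and *Maff*. They were taken by name from the 54532 genes of the deposited table, where each name has 1 row.

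The RNA came from LSK cells sorted from BM, which lack lineage markers, carry Sca1 and c-Kit, and include hematopoietic stem cells and multipotent progenitors. Control LSKs (CTRL, 3 libraries) came from Myh9fl/fl;no cre littermates and *Myh9*-deficient LSKs (cKO, 3 libraries) from Myh9fl/fl;Mx1-cre mice, all C57BL/6. *Myh9* encodes the heavy chain of non-muscle myosin IIA. Both groups carried the floxed allele and both received poly I:C, an RNA mimic that induces interferon and through it the *Mx1* promoter that drives Cre, so each difference below lies between 2 injected groups. Many tissues respond to interferon, so Mx1-cre also recombines in organs such as the liver. The labels give 5 mg/kg poly I:C in 2 doses, sorting of 100000 LSK cells on day 4 after the first dose, and genotyping at 4 to 5 weeks of age; the methods of the study give another number of doses. How many mice gave each library is not stated in the sources used here, so p-values measure the spread between these libraries. In bulk RNA, fewer cells of a type and less RNA per cell cannot be told apart.

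Expression is given as FPKM, a fragment count divided by the length of the gene and the size of the library. The libraries held 17571544 to 19894562 reads on genes, recovered from the table. *Myh9* itself measured 23.0, 22.6 and 22.0 FPKM in control and 18.4, 20.0 and 17.7 FPKM in *Myh9*-deficient LSKs, a fall of 0.26 on the log2 scale (adjusted p = 0.00642, limma) and a change of -17.1% in the mean. Most of the *Myh9* signal thus remained, and FPKM per gene does not show the floxed part of the gene on its own; *Myh9*-deficient is used here as the name of the genotype. Every gene whose mean reached 1 FPKM was tested with limma on log2(FPKM + 1), two-sided, with Benjamini-Hochberg adjustment over 11552 genes, and called at an adjusted p under 0.05. All log2 fold changes are *Myh9*-deficient minus control on this scale. Of the markers that define LSK cells, *Kit* measured 23.9 ± 0.454 and 21.5 ± 0.334 FPKM and *Ly6a*, which encodes Sca1, 95.4 ± 1.87 and 89.5 ± 3.63 FPKM (control and *Myh9*-deficient, SD, n = 3). *Kit* was called lower (log2 fold change -0.14, adjusted p = 0.0105, limma) and *Ly6a* was not (adjusted p = 0.0833, limma). For both, each *Myh9*-deficient library lay below every control library.

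Most AP-1 genes were lower in *Myh9*-deficient LSKs. Of the 10 genes, 9 passed the filter on low values, and 8 of these 9 fell, where 20.6% of all genes tested fell and 40.5% changed in either direction. Among the 8, *Fosl2* passed the filter through its control libraries, with a mean of 0.883 FPKM in *Myh9*-deficient LSKs. In this fit none of the 9 was called higher or had an unadjusted p under 0.05 in that direction, while 19.9% of all genes tested rose. Voom on the recovered reads, and limma with the replicate number as a block, each called 1 of them, *Batf*, higher. The median log2 fold change was -0.88 over the 9 genes and -0.0096 over all genes tested. In the 8 genes that fell, each *Myh9*-deficient library lay below every control library, which held for 28.5% of all genes tested; none of the 9 lay wholly above, which held for 25.5%. By the thresholds of the study, more than 2-fold with an unadjusted p under 0.05, 4 of the 9 were lower (*Atf3*, *Jun*, *Maff* and *Fosl2*), both with the fold on the log2(FPKM + 1) scale (0.701% of all genes tested) and with the fold of mean FPKM (1.19%). None was higher by these thresholds, against 1.43% and 2.16% of all genes tested.

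**Figure D1:**
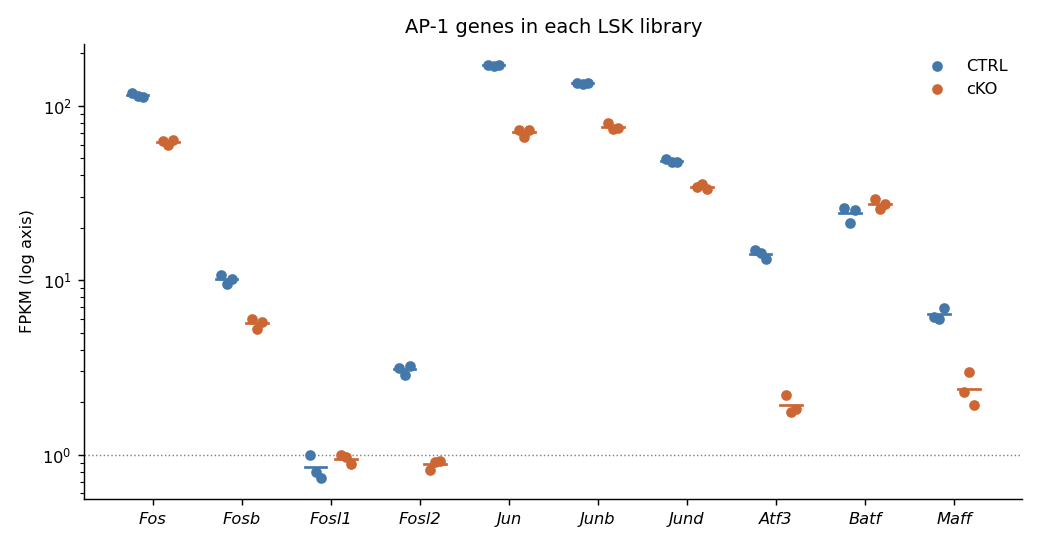
FPKM (log axis) of the 10 AP-1 genes in each of the 3 control (CTRL) and 3 *Myh9*-deficient (cKO) libraries. Points are libraries, short bars are group means and the dotted line is 1 FPKM; the 2 groups overlap in *Fosl1* and *Batf* and stand apart in the other 8 genes.

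Promoter windows of 9 of the 10 genes were matched by symbol in the RefSeq table (GRCm38.p6, 250 bases before to 50 after the start). They were searched on both strands for TGACGT, the core of the cAMP response element, and for TGANNTCA, the spaced relative of the AP-1 site, which overlaps TGACGT in the full element TGACGTCA. Stretches of 90 bases before the start are shown for *Fos*, *Jun*, *Atf3* and *Maff*, 4 of the 5 genes that fell and hold such a match there, with the match in capitals.
Fos: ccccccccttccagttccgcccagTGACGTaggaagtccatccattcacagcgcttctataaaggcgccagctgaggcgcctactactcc
Jun: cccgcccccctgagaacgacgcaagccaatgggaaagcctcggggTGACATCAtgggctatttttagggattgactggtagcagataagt
Atf3: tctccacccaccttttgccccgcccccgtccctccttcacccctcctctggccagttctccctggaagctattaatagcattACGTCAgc
Maff: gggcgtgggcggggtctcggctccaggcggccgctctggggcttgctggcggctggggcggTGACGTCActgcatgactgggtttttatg
The *Fos* stretch lies at chr12:85473800-85473889 on the plus strand and overlaps no annotated gene in GENCODE M21. The *Jun* stretch, at chr4:95052223-95052312 on the minus strand, overlaps the antisense gene *Junos* outside its exons. The *Atf3* stretch, at chr1:191183334-191183423 on the minus strand, belongs to a start 34706 bases inside the gene as the deposited table gives it, and 7 of its bases are exonic. The *Maff* stretch, at chr15:79347430-79347519 on the plus strand, lies outside exons before the middle one of the 3 *Maff* starts in the table.

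The 9 genes have 11 windows, since *Maff* has 3. TGACGT was found in 4 of the 11, from 4 genes (*Fos*, *Atf3*, *Maff* and *Batf*), and in 7.51% of all 32851 windows. TGANNTCA was found in 4 of the 11, from *Jun*, *Jund* and *Maff*, and in 14.1% of all windows. *Batf*, which holds TGACGT 98 bases before its start, was not among the genes that fell, and *Fosb*, *Fosl2* and *Junb*, which fell, held neither pattern. Neither TGANTCA, the AP-1 site itself (7.81% of all windows), nor the CArG box bound by SRF (1.63%) was found in a window of these genes. These letters describe the windows searched and do not show binding. Bases outside the windows were not searched, so an AP-1 site or CArG box farther from a start would have been missed. Whether these genes, *Fos* among them, hold such sites there was not tested.

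Of the FOS family, *Fos* (ENSMUSG00000021250, chromosome 12 from 85473890 to 85477273, 4 exons in its principal transcript) was the most abundant. It measured 119, 114 and 113 FPKM in control and 62.8, 60.0 and 63.5 FPKM in *Myh9*-deficient LSKs. The 2 groups did not overlap and lay far apart against the spread within each, resting on 4719 to 5573 reads per control library and 2572 to 2780 per *Myh9*-deficient library. The log2 fold change was -0.88 (standard error 0.034, 95% interval -0.96 to -0.80, adjusted p = 1.12e-05, limma), and mean FPKM was 1.86-fold lower.

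*Fosb* (chromosome 7 from 19302696 to 19310051), a FOS protein also known in a truncated splice form, measured 10.8, 9.51 and 10.1 FPKM in control and 5.97, 5.26 and 5.74 FPKM in *Myh9*-deficient LSKs. Its log2 fold change was -0.74 (standard error 0.061, adjusted p = 2.28e-04, limma). Values per gene do not separate its splice forms. *Fosl2* (chromosome 5 from 32135801 to 32157842), which encodes FRA2, measured 3.13, 2.88 and 3.23 FPKM in control and 0.816, 0.912 and 0.922 FPKM in *Myh9*-deficient LSKs. This was the deepest fall of the family, with mean FPKM 3.49-fold lower and a log2 fold change of -1.12 (standard error 0.069, adjusted p = 6.57e-05, limma). Because 1 is added to such low FPKM, the log2 fold change understates the ratio, and it was -1.69 with a pseudocount of 0.1 and -1.78 with voom on the recovered reads.

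*Fosl1* (chromosome 19 from 5447703 to 5455945), which encodes FRA1, was the one member below the filter. It measured 1.00, 0.798 and 0.733 FPKM in control and 1.00, 0.964 and 0.881 FPKM in *Myh9*-deficient LSKs, from 24 to 34 reads per library. The groups overlapped, and without the filter its log2 fold change was 0.082 (standard error 0.081, adjusted p = 0.568, limma). A small change would not be detectable at this depth.

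All 3 JUN genes fell, by different amounts. These genes have 1 exon in their principal transcripts and encode the partners that FOS proteins depend on. *Jun* (ENSMUSG00000052684, chromosome 4 from 95049034 to 95052222) measured 172, 169 and 172 FPKM in control and 72.6, 66.4 and 72.7 FPKM in *Myh9*-deficient LSKs. It was the most abundant of the 10 genes in control LSKs, where it ranked 283 by mean FPKM among protein-coding genes, and ranked 788 in *Myh9*-deficient LSKs. Its log2 fold change was -1.27 (standard error 0.040, 95% interval -1.36 to -1.17, adjusted p = 5.13e-06, limma), 2.42-fold in mean FPKM.

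*Junb* (chromosome 8 from 84974484 to 84978718), a weaker activator than *Jun* that restrains myeloid proliferation, measured 135, 133 and 135 FPKM in control and 79.2, 73.3 and 74.7 FPKM in *Myh9*-deficient LSKs. Its log2 fold change was -0.82 (standard error 0.034, adjusted p = 1.34e-05, limma). In *Myh9*-deficient LSKs each library had more *Junb* than *Jun*, and in control LSKs each had less. *Junb* overlaps *Prdx2* on the other strand by 351 bases, and whether the counting used strand is not given in the sources used here. *Prdx2* rose, from 125 ± 3.05 to 138 ± 0.842 FPKM (log2 difference 0.15, adjusted p = 0.00515, limma).

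*Jund* (chromosome 8 from 70698949 to 70700616), the member of the family least dependent on a stimulus, measured 49.6, 47.7 and 47.5 FPKM in control and 34.0, 35.8 and 33.2 FPKM in *Myh9*-deficient LSKs. It had the smallest fall among the 8 genes, with a log2 fold change of -0.48 (standard error 0.037, adjusted p = 1.73e-04, limma). *Junos*, antisense to *Jun*, reached at most 0.117 FPKM in any library.

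*Atf3* (ENSMUSG00000026628, chromosome 1 from 191170296 to 191218039), a stress-induced factor that often represses the promoters it binds, showed the deepest fall of the 10 genes and ranked 5 among the falls of all 11552 genes tested. It measured 14.9, 14.3 and 13.3 FPKM in control and 2.21, 1.76 and 1.82 FPKM in *Myh9*-deficient LSKs. These values rest on 543 to 637 reads per control library and 69 to 89 per *Myh9*-deficient library. The log2 fold change was -2.37 (standard error 0.074, 95% interval -2.55 to -2.20, adjusted p = 4.96e-06, limma), and mean FPKM was 7.34-fold lower. *Maff* (chromosome 15 from 79346621 to 79359076), a small MAF protein without an activation domain, measured 6.18, 6.02 and 6.95 FPKM in control and 2.28, 2.96 and 1.93 FPKM in *Myh9*-deficient LSKs. Its log2 fold change was -1.13 (standard error 0.12, adjusted p = 5.32e-04, limma), with the widest interval of the 9 genes.

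*Batf* (chromosome 12 from 85686669 to 85709087), which pairs with JUN proteins and is known from lymphocytes, measured 25.8, 21.4 and 25.3 FPKM in control and 29.3, 25.7 and 27.5 FPKM in *Myh9*-deficient LSKs. The groups overlapped, since 1 *Myh9*-deficient library (25.7 FPKM) lay just below the highest control library (25.8 FPKM). The log2 fold change was 0.18 (95% interval -0.0087 to 0.37, adjusted p = 0.115, limma), or 0.20 with an adjusted p of 0.0337 with voom on the recovered reads, and the adjusted p was 0.0288 in limma with the replicate block. Over all alternatives the adjusted p ran from 0.0288 to 0.331.

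**Figure D2:**
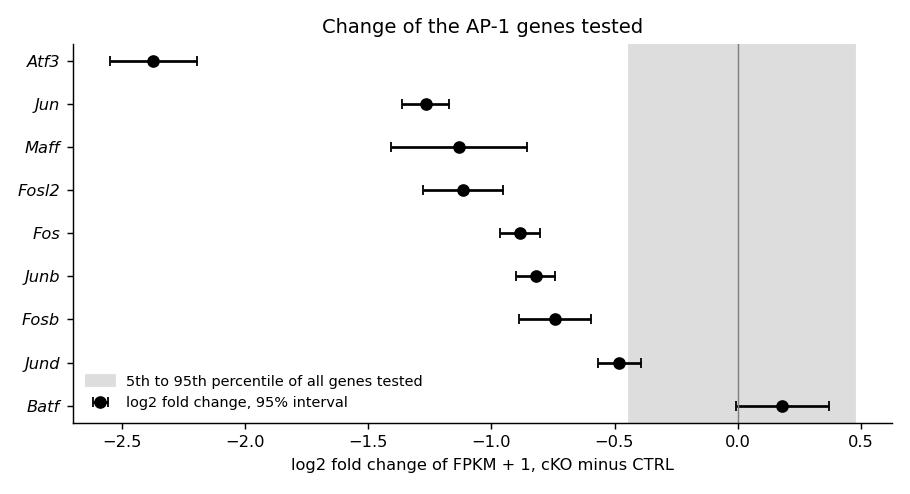
Log2 fold change of FPKM + 1 (x axis, *Myh9*-deficient minus control) of the 9 AP-1 genes tested, with 95% intervals from limma. The shaded band holds the 5th to 95th percentile of all 11552 genes tested (-0.44 to 0.48); 8 genes lie to its left, *Jund* (-0.48) nearest to it, and *Batf* (0.18) lies within it.

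Since FPKM is scaled by length, the members of a family can be added. The summed level of the FOS family was 134, 127 and 127 FPKM in control and 70.6, 67.1 and 71.1 FPKM in *Myh9*-deficient LSKs, a change of -46.2% in the mean. The summed level of the JUN family was 357, 350.0 and 354 FPKM in control and 186, 175 and 181 FPKM in *Myh9*-deficient LSKs, a change of -48.9%. The FOS and JUN sums were thus lower by similar shares, 1.86-fold and 1.96-fold. Over the 10 genes the sum ran from 519 to 537 FPKM in control and from 273 to 290.2 FPKM in *Myh9*-deficient LSKs. For each of the 3 sums the groups did not overlap, and the exact permutation test (two-sided) gave p = 0.1, the smallest that 3 libraries against 3 allow.

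The make-up of the JUN family differed between the groups. *Jun* made up 48.3% ± 0.233 of its summed FPKM in control and 39.1% ± 1.22 in *Myh9*-deficient LSKs (SD, n = 3). The share of *Junb* was 38.0% ± 0.0673 and 41.9% ± 0.649, and that of *Jund* 13.7% ± 0.260 and 19.0% ± 1.19, in the same order. In the FOS family the share of *Fos* was 89.1% ± 0.414 in control and 89.2% ± 0.237 in *Myh9*-deficient LSKs, and that of *Fosl2* 2.38% ± 0.146 and 1.27% ± 0.104. The share of *Fosl1* was 0.651% ± 0.0876 in control and 1.36% ± 0.108 in *Myh9*-deficient LSKs, without overlap, at levels of *Fosl1* itself that did overlap.

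**Figure D3:**
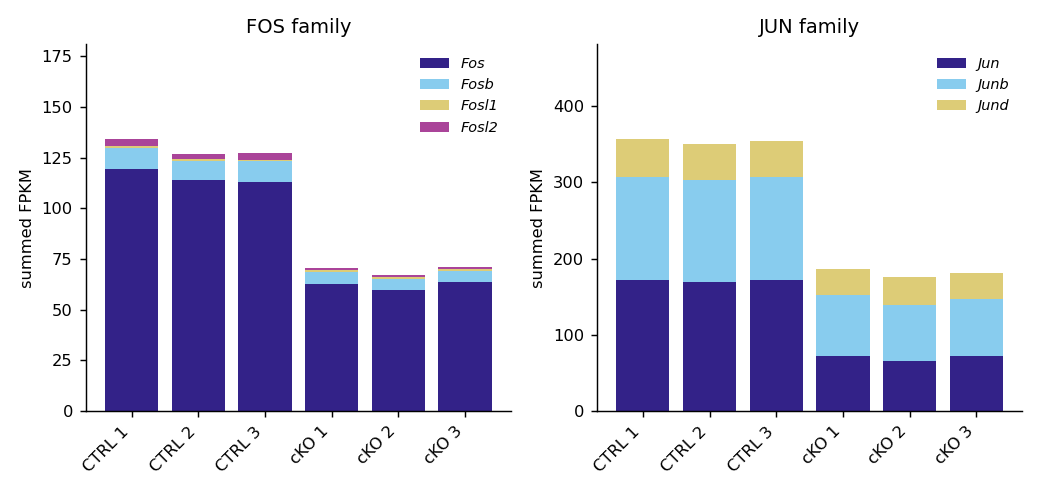
Summed FPKM of the FOS family (left) and the JUN family (right) in each of the 6 libraries, stacked by gene, with separate linear axes from 0. Control libraries span 127 to 134 FPKM for FOS and 350.0 to 357 FPKM for JUN, and *Myh9*-deficient ones 67.1 to 71.1 and 175 to 186 FPKM.

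Whether members changed by unequal amounts was tested on log2 ratios of 2 genes within each library, for 6 pairs set by the design. The *Jund* to *Jun* log2 ratio was -1.80 ± 0.034 in control and -1.02 ± 0.13 in *Myh9*-deficient LSKs, a difference of 0.79. The *Junb* to *Jun* log2 ratio differed by 0.45 and the *Jun* to *Fos* log2 ratio by -0.38. The *Atf3* to *Fos* log2 ratio differed by -1.49 and the *Fosl2* to *Fos* log2 ratio by -0.23, or by -0.91 without a pseudocount. In these 5 pairs the groups did not overlap with or without the pseudocount (exact permutation p = 0.1, the smallest possible, and 0.1 after Benjamini-Hochberg adjustment over the 6 pairs). The *Fosb* to *Fos* log2 ratio differed by 0.14 (exact permutation p = 0.1), but by 0.054 without a pseudocount (exact permutation p = 0.4), so an unequal change of these 2 genes was not separated from the pseudocount.

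Other bZIP genes can pair with or replace these members. Of 17 listed, 10 passed the filter and were tested, and 4 fell (against 20.6% of all genes). None rose with limma on all 6 libraries, at the adjusted or the unadjusted threshold, or with voom on these genes. Without cKO replicate 3, limma called 1 higher, *Jdp2*. The median log2 fold change was -0.11. *Bach1*, a repressor that binds with small MAF proteins, had a log2 fold change of -0.37 (5.94 to 4.34 FPKM), *Nfe2l1* -0.24 (17.3 to 14.4 FPKM) and *Atf7* -0.23 (3.22 to 2.61 FPKM). None of these 10 had a log2 fold change as far from 0 as that of *Jund*.

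Upstream of AP-1 stand the MAP kinases and the factors that act on *Fos* and *Jun* promoters. Of 27 listed, 23 were tested and 10 fell, against 20.6% of all genes, with a median of -0.14. None rose in the limma fit behind these counts, although 2 had an unadjusted p under 0.05 towards higher values. Voom called 3 higher and limma without a trend in the moderation called 1. With the trends of GC content and length removed, limma called 4 higher and 7 lower. The largest falls among those tested were those of *Map2k6*, a kinase of p38 (log2 fold change -0.63, 4.25 to 2.41 FPKM), *Map3k1*, a kinase upstream of JNK (-0.52, 3.38 to 2.06 FPKM), and *Elk3*, a partner of SRF (-0.40, 14.1 to 10.5 FPKM). *Srf*, which encodes the factor that binds the CArG box, measured 32.5 ± 2.18 and 30.6 ± 0.547 FPKM (adjusted p = 0.227, limma). The JNK genes *Mapk8* and *Mapk9*, whose products phosphorylate JUN, did not pass either (adjusted p = 0.234 and 0.131, limma). *Srf*, *Mapk8* and *Mapk9* are named here outside the rule for named genes, for their roles and after their values were seen.

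Genes known as AP-1 targets in other cells went both ways. Of 24 listed, 14 were tested, 4 fell and 5 rose, where 20.6% and 19.9% of all genes tested did so, and the median was -0.046. Among those that rose, *Mmp9* and *Gja1* passed the filter through the *Myh9*-deficient libraries, with control means of 0.969 and 0.768 FPKM. Both are named outside the rule for named genes. Among those that fell, *Plau* passed it through the control libraries, so these counts depend in part on the filter. *Dusp1*, which encodes a phosphatase of MAP kinases (log2 fold change -0.93, 73.3 to 38.0 FPKM), *Plau*, the urokinase gene (-0.75, 2.12 to 0.845 FPKM), and *Vim*, the vimentin gene (-0.23, 178 to 152 FPKM), had the largest falls. *Mt1*, a metallothionein gene (0.93, 120.1 to 230.1 FPKM), *Lmna*, the lamin A/C gene (0.83, 1.95 to 4.25 FPKM), and *Hmox1*, the heme oxygenase 1 gene (0.78, 1.79 to 3.71 FPKM), had the largest rises among the genes tested. *Mt2*, a metallothionein gene below the filter and outside the rule for named genes, measured 0.171, 0 and 0 FPKM in control and 1.18, 1.96 and 0.457 FPKM in *Myh9*-deficient LSKs, and was not tested. *Mmp3*, *Timp1* and *Lor* of this list were listed at 0 in all 6 libraries.

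Immediate early genes outside the AP-1 family fell with it. Of 22 symbols listed, 20 were in the table and 14 were tested. The absent symbols, *Ccn1* and *Ccn2*, are other names of *Cyr61* and *Ctgf*, which were in it. Of the 14, 11 fell, against 20.6% of all genes, and 1 rose, with a median of -0.71. *Nr4a1*, an orphan nuclear receptor, had a log2 fold change of -1.81 (40.2 to 10.7 FPKM), *Btg2*, an antiproliferative gene, -1.43 (37.1 to 13.2 FPKM), and *Egr1*, a zinc finger factor, -1.31 (33.1 to 12.7 FPKM). The clock gene *Per1* rose (0.53, 4.70 to 7.20 FPKM). The summed level of this list was 510.3 to 523 FPKM in control and 287 to 293 FPKM in *Myh9*-deficient LSKs.

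Marker genes of blood lineages and of LSK cells moved between the groups as well. The counts below stand against 20.6% of all genes tested that fell and 19.9% that rose. Whether these RNAs came from LSK cells or from other cells in the sort was not tested. Of 15 neutrophil and monocyte markers, 14 were tested and 13 fell, with a median of -0.78 and a summed level of 11160 to 11190 FPKM in control and 6181 to 6287 FPKM in *Myh9*-deficient LSKs. None of the 15 was at 0, and the largest falls were those of *Cd14* (-2.26), *Csf1r* (-1.46) and *Ly6c2* (-1.45). *S100a8*, the one tested that was not called, measured 67.8 and 67.3 FPKM (adjusted p = 0.885, limma). Most of the sum lay in *Mpo* (3331 to 1953 FPKM), *Elane* (3096 to 1346 FPKM), *Prtn3* (2008 to 1046 FPKM) and *Ctsg* (1785 to 1367 FPKM). These and *S100a8* are named outside the rule for named genes. Of the other marker lists, 9 of 9 erythroid markers tested rose (summed level 557 to 564 and 986 to 1027 FPKM, control and *Myh9*-deficient), and so did 3 of 3 megakaryocyte markers (57.6 to 61.2 and 126 to 131 FPKM, with *Gp1bb* at 0) and 5 of 6 mast cell and basophil markers (90.3 to 102 and 149 to 159 FPKM). Of 4 T and NK cell markers tested 3 rose and 1 fell. Their sum of 366 to 378 and 338 to 342 FPKM was mostly *Nkg7*, the one that fell, and without it the list summed to 15.7 to 19.2 FPKM in control and 59.8 to 61.8 FPKM in *Myh9*-deficient LSKs. Of 6 B and plasma cell markers 3 rose and 2 fell (169 to 173 and 162 to 168 FPKM). Of 9 LSK and stem cell markers 4 rose and 1, *Kit*, fell (summed level of the list 346 to 352 and 354 to 384 FPKM). The filter takes the mean over both groups, so a gene can pass it through 1 group alone. *Hba-a1*, *Hbb-bs*, *Cd79a*, *Fcer1a* and *Cma1* passed it through the *Myh9*-deficient libraries, with control means under 1 FPKM, and each rose. *Alas2*, of the erythroid list, was below the filter. The counts of rises in these lists thus depend in part on the filter. *Fcer1a* and *Alas2* are named outside the rule for named genes. The part of these shifts in the levels of the AP-1 genes was not tested.

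**Figure D4:**
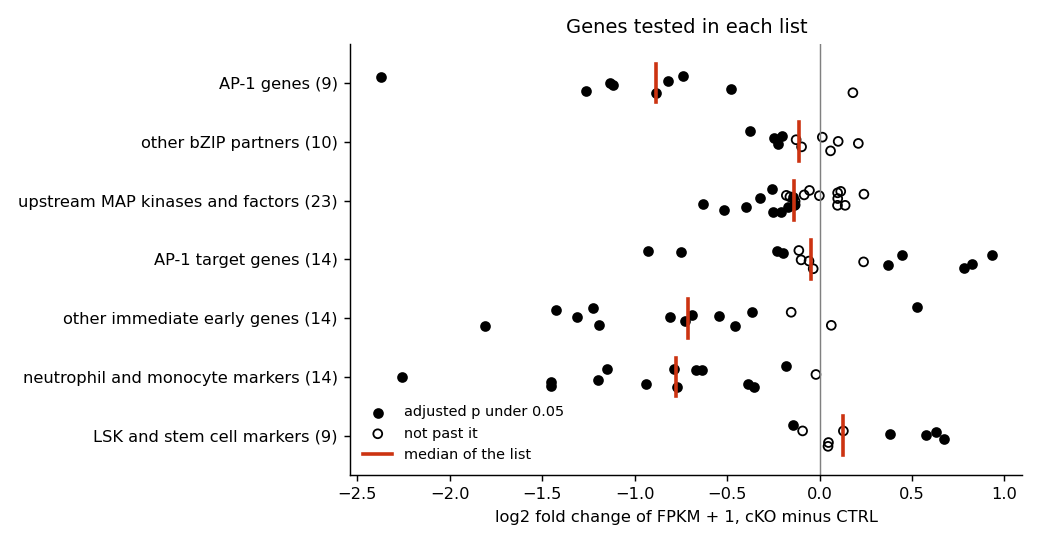
Log2 fold change of FPKM + 1 (x axis, *Myh9*-deficient minus control) of each gene tested in 7 lists, with the number tested in brackets, filled points for an adjusted p under 0.05, open points for the others and red bars for medians. The medians of the AP-1 genes (-0.88), the other immediate early genes (-0.71) and the neutrophil and monocyte markers (-0.78) lie left of those of the other bZIP partners (-0.11) and the AP-1 targets (-0.046).

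By a rule on likeness of pattern, the genes outside these lists with a mean of at least 5 FPKM (7082) were ranked by the root mean square difference from *Fos* or *Jun* over the 6 libraries, after subtracting each gene's control mean on the log2 scale. The closest to *Fos* were *Ms4a6c* (difference 0.033; 55.8 to 29.1 FPKM), *Hexa* (0.035; 133 to 70.9 FPKM) and *Alas1* (0.039; 79.7 to 42.5 FPKM). The closest to *Jun* were *F13a1* (0.061; 44.1 to 18.5 FPKM), *Serinc3* (0.084; 409.8 to 183 FPKM) and *Pld4* (0.10; 16.0 to 6.46 FPKM). All 6 were lower in *Myh9*-deficient LSKs with no overlap of the groups, a pattern that the rule itself selects.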

How the data were processed

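RNA-seq libraries of LSK cells were made with an Illumina TruSeq kit per the labels, and the submitters' processing notes name HISAT2 2.0.5 and mm10. The counting program and its strand setting are not given in the sources used here. The table that the authors deposited holds FPKM in 6 libraries, and a length, for 54532 genes. Multiplied by length, 100% of the values were whole reads (within 0.01 of a read) times a constant of the library, so reads were recovered. These reads have no molecular identifiers, and their numbers speak for counting error only.

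Genes averaging 1 FPKM or more were fitted with limma 3.58.1 (lmFit, eBayes with a trend; R 4.3.3) on log2(FPKM + 1), checked on simulated data. Family sums and ratios were compared with exact permutation tests over libraries (Python 3.11.15, pandas 2.3.3, numpy 2.4.6). Alternatives were a pseudocount of 0.1, no filter or one at 5 FPKM, quantile, median-of-ratios or TPM scaling, voom on recovered reads, moderation with no trend, the replicate number as a block, 1 library left out at a time, the thresholds of the study, and a correction for GC content and length per library. No 2 libraries held identical values, and libraries of one group differed by more than sampling noise (chi-square per degree of freedom 2.74 to 4.89).

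The 10 genes and the gene lists were chosen with earlier results of these data known. Beside the 10 genes and *Myh9*, the text names at most 3 genes called in each direction in a list, those closest in pattern to *Fos* and *Jun*, genes that overlap a member, and others as stated. Promoter windows come from RefSeq (GRCm38.p6), and the deposited coordinates are those of GRCm38. The window of *Jund* is set on a start 1210 bases from that in the deposited table, and that of *Fosl2* on a start 671 bases from it.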

Additional observations from a re-analysis of the deposited data

How the results depend on the processing

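The 8 AP-1 genes that fell kept their direction and an adjusted p under 0.05 in every alternative fit that tested them; *Maff* and *Fosl2* were below the filter of a mean of 5 FPKM. Over these fits the log2 fold change ran from -2.85 to -2.33 for *Atf3*, -1.32 to -1.22 for *Jun*, -1.42 to -1.03 for *Maff*, -1.78 to -0.999 for *Fosl2*, -0.93 to -0.86 for *Fos*, -0.88 to -0.80 for *Junb*, -0.83 to -0.64 for *Fosb* and -0.51 to -0.46 for *Jund*. The largest adjusted p of the 8 was 0.00472. By the thresholds of the study, with the fold on the log2(FPKM + 1) scale, the number called lower was 4 of the AP-1 genes, 0 of the other bZIP partners, 0 of the upstream genes, 0 of the AP-1 targets and 5 of the other immediate early genes, and the number called higher was 0 of the AP-1 targets and 0 of the immediate early genes. With the fold of mean FPKM in its place, chosen after seeing the data, the numbers called lower were 4 of the AP-1 genes, 0 of the other bZIP partners, 0 of the upstream genes, 1 of the AP-1 targets (*Plau*) and 6 of the other immediate early genes, and those called higher were 2 of the AP-1 targets (*Lmna* and *Hmox1*) and 0 of the immediate early genes. *Batf* was called higher (1 gene) with voom on recovered reads and with the replicate block (log2 fold change 0.18, adjusted p = 0.0288). Same-numbered libraries of the 2 groups did not deviate together (correlations -0.026 to -0.0050), so the numbers were not taken to pair them, and the block changed no other call among the AP-1 genes.

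Of the other bZIP partners, 1 was called higher without the filter (*Maf*), and 0 to 1 when a library was left out, the 1 being *Jdp2* without cKO replicate 3. Of the upstream genes, 1 was called higher with moderation without a trend, 3 with voom, 4 with the GC content and length trends removed, and 0 to 1 when a library was left out, the 1 being *Rps6ka3* without cKO replicate 2. With a mean of at least 5 FPKM, 2 AP-1 targets were called higher, and without the filter 2 immediate early genes were; fewer or more genes were then tested. Quantile normalization moved the log2 ratio of the JUN sum from -0.97 to -1.02 and that of the 10-gene sum from -0.90 to -0.95; the cause was not tested. Leaving out a library gave -0.99 to -0.95 and -0.93 to -0.88 for these sums and -0.91 to -0.87 for the FOS sum. Scaling moved the median of all genes by less than 0.1. At 24 to 34 reads per library, depth limits what can be said of *Fosl1*.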
